A study of Mus musculus with 12 samples.

Results

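The genes described here are 30 interferon-stimulated genes, chosen by name, in RNA sequenced from mouse (Mus musculus) neutrophils sorted out of the heart. All 30 were found by symbol in the deposited table, which lists 11911 genes. The data are 12 libraries, 6 with the genotype label control (numbered 2, 6, 7, 8, 11 and 12) and 6 with the genotype label LOY (3, 4, 5, 10, 14 and 15). In the series title, LOY stands for a loss of the Y chromosome in hematopoietic cells. All 12 titles name control bone marrow transplants (BMT), those of the LOY libraries included, although the codes of these end in KO. The treatment label reads control for every library. What control means in the titles of the LOY libraries is not given, and the groups here follow the genotype label. Each library was made from 800 cells of the digested left ventricle, gated as CD45.2+, Ly6G+, CD64- and RFP+ (a red fluorescent protein). The strain, age and sex of the mice, how the Y chromosome was lost and what the hearts had been exposed to are not given in the sources used here. Since nothing in the labels says that the libraries are from different mice, p-values cover the spread among the libraries alone. Because the samples are bulk RNA, fewer cells of a type and less RNA per cell cannot be told apart.

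Interferons are secreted proteins that warn cells of infection or damage. Type I interferons bind the receptor pair Ifnar1 and Ifnar2, which activates the kinases Jak1 and Tyk2, and these phosphorylate Stat2. Stat2 joins Irf9 in a complex that binds the interferon-stimulated response element (ISRE) in front of target genes, while interferon gamma acts through the gamma-activated sequence (GAS). The targets include sensors and factors that amplify the signal, proteins that block viral replication, chemokines that recruit lymphocytes, and brakes such as Usp18. Neutrophils carry both receptors, and a subset of neutrophils with high levels of these genes is known from blood and injured tissue.

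The promoter sequences show what most of these genes share apart from their name. RefSeq promoters (GRCm38.p6, 250 bases before to 50 after the annotated start) were matched by symbol for 24 of the 30 members, and Mx1, Mx2, Oas2, Usp18, Ifi204 and Zbp1 had no entry. The ISRE core was searched as GAAA, any 2 bases and GAAA again, on both strands, with overlapping copies counted. It was in a promoter of 16 of the 24 members (66.7%), against 4.70% of 5067 tested genes with an entry, 3.99% of all 27025 genes and 3.44% of all 32851 promoters. The GAS motif, searched as TTC, any 3 bases and GAA, which reads the same on both strands, was in 5 of the 24 members (20.8%), against 7.84% of the tested genes and 8.30% of all promoters. These matches describe letters in a window and are not binding sites.

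The stretches printed next, 5′ to 3′ on the gene's own strand, are those of 9 members that the results turn on. Capitals mark the ISRE core, with GAAA at both ends or, where it lies on the other strand, TTTC at both ends; 25 bases are shown on either side and none after the start site. Isg15 has 3 overlapping cores, Ifit1 has 2 separate ones, and Ifit3 and Ifit3b carry the same pair. Cxcl10 and Rsad2 have 1 each. Bst2, Oas1a and Oas1c each have 2 copies that overlap.
Isg15: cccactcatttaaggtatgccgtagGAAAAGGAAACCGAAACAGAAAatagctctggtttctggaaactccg
Ifit1: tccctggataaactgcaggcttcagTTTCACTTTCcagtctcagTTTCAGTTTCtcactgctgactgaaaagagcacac
Ifit3: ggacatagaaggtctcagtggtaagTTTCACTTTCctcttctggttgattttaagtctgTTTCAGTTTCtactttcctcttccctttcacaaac
Ifit3b: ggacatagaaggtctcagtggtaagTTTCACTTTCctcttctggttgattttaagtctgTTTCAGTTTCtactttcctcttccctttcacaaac
Cxcl10: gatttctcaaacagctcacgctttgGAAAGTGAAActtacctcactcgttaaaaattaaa
Rsad2: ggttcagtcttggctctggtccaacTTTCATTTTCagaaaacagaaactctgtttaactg
Bst2: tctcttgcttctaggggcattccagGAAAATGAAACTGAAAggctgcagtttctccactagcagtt
Oas1a: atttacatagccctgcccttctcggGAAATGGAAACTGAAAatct
Oas1c: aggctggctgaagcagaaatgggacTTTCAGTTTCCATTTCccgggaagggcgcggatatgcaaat

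These stretches lie at chr4:156200850-156200921 (Isg15), chr19:34640760-34640838 (Ifit1), chr19:34583348-34583441 (Ifit3), chr19:34607744-34607837 (Ifit3b) and chr5:92349068-92349127 (Cxcl10). The others are at chr12:26456538-26456597 (Rsad2), chr8:71537562-71537627 (Bst2), chr5:120907526-120907570 (Oas1a) and chr5:120812588-120812653 (Oas1c). Ifit1, Ifit3 and Ifit3b are on the plus strand and the other 6 on the minus strand. Ifit3 and Ifit3b, neighbours on chromosome 19, share an unbroken run of 169 bases within the 250 before their starts, so the pair of cores is a copied block. In Ifit3 the cores begin 156 and 122 bases before the start, and in Ifit3b 188 and 154 bases before it. Oas1a and Oas1c both have the 6-base step of overlapping cores, but their longest shared run is 9 bases. Over the 16 promoters with a core, 25 copies were found, 8 promoters had more than 1 and 5 had copies that overlapped. The cores of 14 lay before the start site, while those of Ddx58 and Ifih1 lay after it. No copy was found in the windows of Ifit2, Irf7, Irf9, Isg20, Oasl1, Oasl2, Ifi44 and Ifi47.

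**Figure D1:**
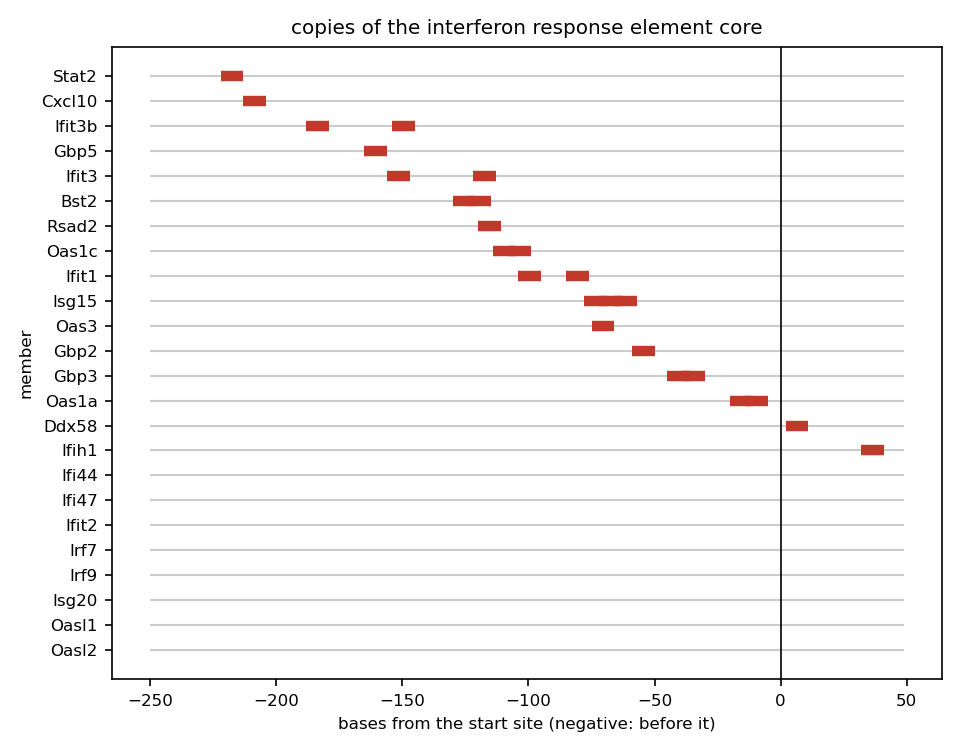
Position of each copy of the ISRE core (red) in the 300-base RefSeq promoter window of the 24 members with an entry, on a scale of bases from the start site (black line). Where a member has several promoters, the one with a core is drawn; 16 members hold at least 1 copy and 8 hold none.

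The reads behind these values ranged from 6767108 to 12561174 per library, and between 7539 and 9463 genes were above 0. Each value is the number of reads after division by a factor of that library (normalised reads). LOY 5 stood apart: it had the lowest median over the listed genes (6.92 normalised reads, against 11.4 to 103 elsewhere) and the fewest genes at 10 or more (5753, against 6170 to 8037). All 12 neutrophil markers looked for were in the table, and they summed to 205900 to 597400 per control library and to 185800 to 371100 per LOY library. Ly6g, the gene behind the sorting antibody, varied widely, from 0.926 to 1039 normalised reads per control library and from 0 to 619 per LOY library. Cardiomyocyte markers (15 of 15 in the table) summed to between 4192 and 8592 in control and to between 4430 in LOY 5 and 65060 in LOY 10. The LOY libraries other than LOY 5 were all at 11470 or more, above every control library. Macrophage markers (13 of 14) summed to 7686 to 12600 and 4270 to 15440, and dendritic cell markers (9 of 11, with Bst2 left out) to 5390 to 33980 and 9313 to 42550. B cell markers (8 of 8) summed to 3263 to 12350 in control and to 2996 to 8887 in LOY libraries. Endothelial markers (10 of 10) summed to 1167 to 4463 and 2995 to 6409, and fibroblast markers (8 of 8) to 139 to 1537 and 386 to 9507. Of 10 T and NK cell markers 2 were in the table, and Cd3e, Cd3g, Trac and Ncr1 are not listed.

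Most of the members were abundant in these cells. Per kilobase of exon, the highest mean level over the 12 libraries was that of Isg15, at 4294 ± 2037 normalised reads per kb (SD, n = 12), which is the 98.3rd percentile of the genes tested. Ifit3 followed at 2424 ± 1614, Isg20 at 1717 ± 923, Irf7 at 1713 ± 945, Ifit1 at 1175 ± 621 and Ifit3b at 1153 ± 785 normalised reads per kb (SD, n = 12). Neighbours in this order, Isg15 and Ifit3 included, were closer to each other than the larger of their SDs over libraries. At the other end were Mx1 at 27.8, Mx2 at 12.7, Gbp5 at 11.4 and Ifi44 at 7.91 normalised reads per kb. These 4 were not tested, because fewer than 6 libraries had 10 normalised reads of them; the other 26 passed that filter. Of the 26, 20 were above 0 and 17 were at 10 or more in every library.

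**Figure D2:**
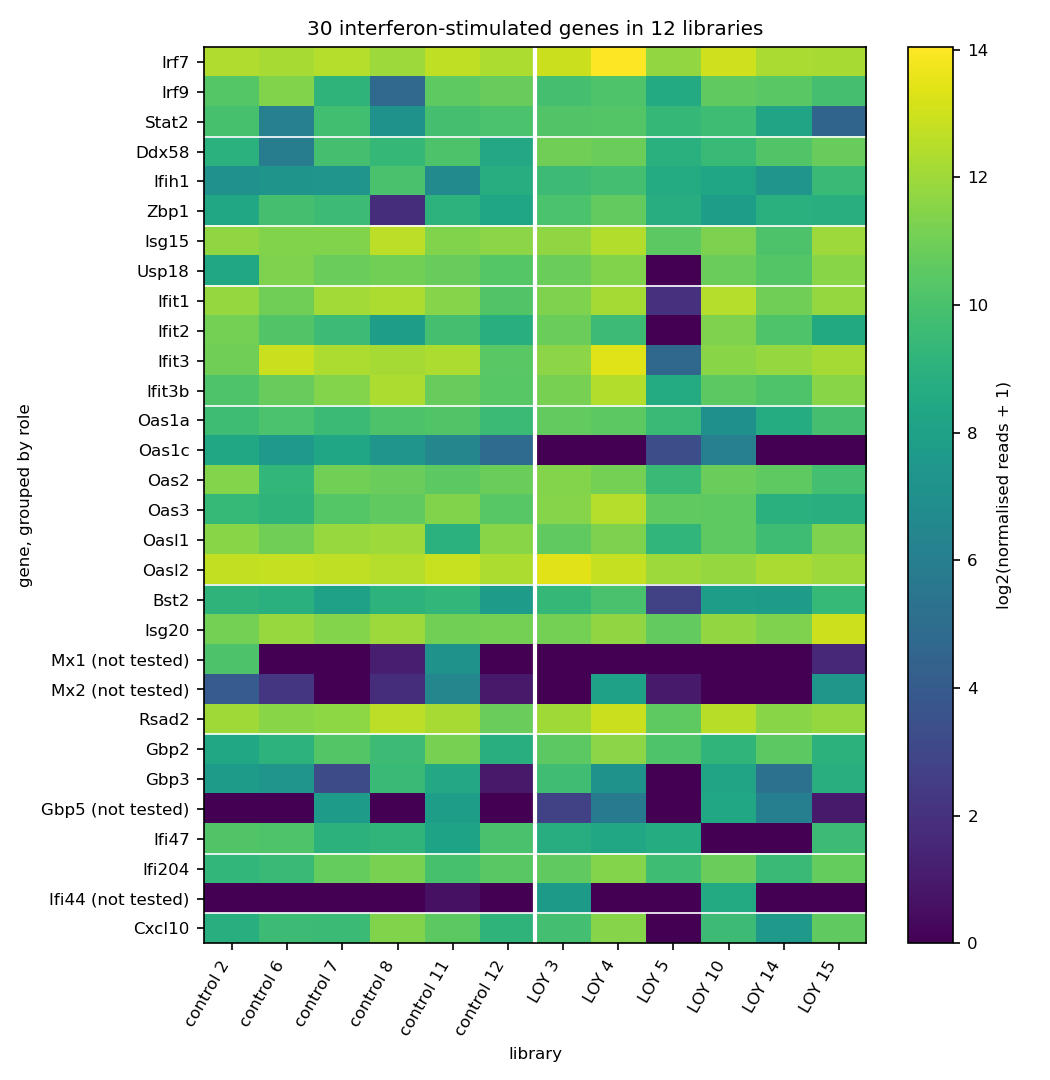
Level of each of the 30 members (vertical, grouped by role) in each of the 12 libraries (horizontal, control left and LOY right of the white line), as log2(normalised reads + 1) by colour. The column of LOY 5 is dark for Usp18, Ifit1, Ifit2, Ifit3, Bst2 and Cxcl10, and the line of Oas1c is dark in 4 LOY libraries.

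The levels of the members were compared between the LOY and control libraries, and no member passed the threshold. With limma on log2(normalised reads + 1), 0 of the 26 tested members had an adjusted p under 0.05, against 0.0288% of the 6951 genes tested (2 genes). At an unadjusted p under 0.05 there were 2 members (7.69%), Oas1c and Ddx58, against 4.37% of all genes tested. Oas1c passed the filter only through the control libraries, where it is high, so its place in this count is no support for a difference. In none of the 26 did the control and LOY values fail to overlap, as they did in 0.201% of the genes tested (14 genes). The fitted log2 fold change, LOY over control, was positive for 11 members and negative for 15 (42.3% positive, against 50.4% of all genes tested). Its median was -0.18 for the members and 0.0081 for all genes tested. Without LOY 5 the split turned, to 18 positive members and a median of 0.25. An edgeR quasi-likelihood test on the recovered reads called no member and 0% of 7054 genes, and DESeq2 on the same reads called 2 members among 3.12% of 9723 genes. The DESeq2 fit gave the log2 fold changes of the authors' deposited table, so its calls and theirs are 1 analysis.

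The width of the intervals limits what can be said of single members. The median standard error of the log2 fold change was 0.69 for the members and 1.35 for all genes tested. For 3 of the 26 members (11.5%, against 5.68% of the genes tested) the 95% interval lay wholly between a log2 fold change of -1 and 1. These were Isg20 (-0.61 to 0.92), Oasl2 (-0.85 to 0.30) and Rsad2 (-0.76 to 0.91). For the other 23 the interval reached past -1 or 1.

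**Figure D3:**
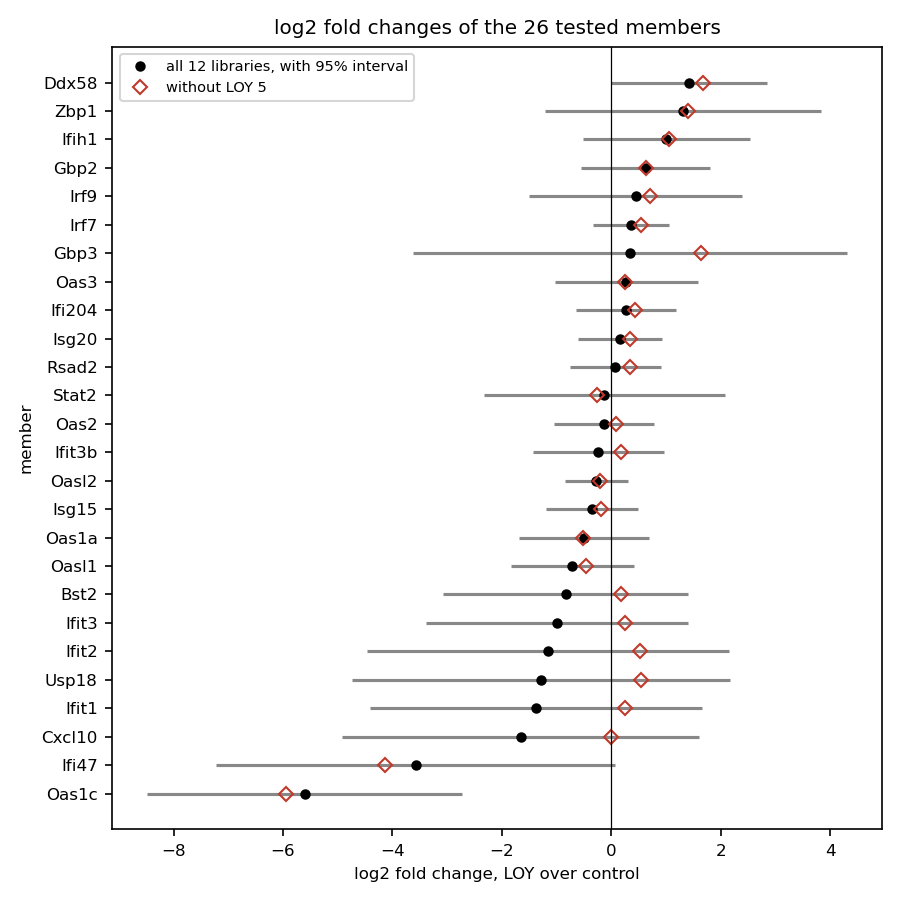
Fitted log2 fold change, LOY over control, of the 26 tested members (black points) with its 95% interval (grey bars), and the value fitted without LOY 5 (open red diamonds). The points without LOY 5 of Ifit1, Ifit2, Ifit3, Ifit3b, Oas2, Usp18 and Bst2 lie on the other side of 0 from the black points.

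Among the transcription factors, Irf7 was abundant and narrow in the control libraries. Irf7, which drives the second wave of interferon and interferon-stimulated transcription (chr7:141262706-141266481, minus strand), ran from 3989 to 6639 with a median of 5224 normalised reads in the control libraries, and from 3532 in LOY 5 to 16880 in LOY 4 with a median of 6324 in the LOY libraries. LOY 3, LOY 4 and LOY 10 were above every control library, and the groups overlapped. The fitted log2 fold change was 0.36 (SE 0.32, 95% interval -0.33 to 1.06; limma, adjusted p = 0.997), and 0.095 without LOY 4. Stat2, the partner of Irf9 in the ISRE-binding complex, ran from 69.6 (control 6) to 1067 with a median of 922, and from 21.6 (LOY 15) to 1262 with a median of 743 normalised reads. Control 6, control 8 (146), LOY 14 (295) and LOY 15 were low, the other libraries were at 653 or more, and its log2 fold change was -0.13 (SE 1.03). Irf9, the DNA-binding part of that complex, ran from 26.6 to 2671 in control and from 388 to 1551 in LOY libraries, and shares 123 bases of exon with Rnf31, so part of its reads is uncertain.

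The 3 nucleic acid sensors had positive fitted changes, none past the threshold. Ddx58, which encodes the RNA sensor RIG-I (chr4:40203773-40239828, minus strand), ran from 60.6 (control 6) to 1092 with a median of 573 normalised reads in the control libraries. In the LOY libraries it ran from 491 (LOY 5) to 2047 (LOY 3) with a median of 1474. LOY 3, LOY 4, LOY 14 and LOY 15 were above every control library and the other LOY libraries were inside the control range. The log2 fold change was 1.42 (SE 0.66, 95% interval 0.0035 to 2.85), with an unadjusted p of 0.0495 and an adjusted p of 0.997 in limma. Ifih1, which encodes the long double-stranded RNA sensor MDA5, ran from 105 to 1033 (control 8) with a median of 156, and from 157 to 925 with a median of 567 normalised reads. With control 8 the control range covers that of the LOY libraries, and the log2 fold change was 1.01 (SE 0.71). Zbp1, a sensor of Z-form nucleic acid that triggers cell death, ran from 2.53 (control 8) to 972 with a median of 437 in control, and from 222 to 1630 normalised reads in LOY libraries. Its log2 fold change of 1.31 (SE 1.18) went with the near absence of Zbp1 from control 8.

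Isg15 and Usp18 act as a pair, Isg15 as a ubiquitin-like protein that is attached to others and Usp18 as the protease that removes it and dampens the type I receptor. Isg15 (chr4:156199424-156200818, minus strand) ran from 2633 to 6500 (control 8) with a median of 2915 normalised reads in the control libraries, and from 1100 (LOY 14) to 5573 (LOY 4) with a median of 2920 in the LOY libraries. The medians were nearly equal, and the LOY libraries spread more widely than the 5 control libraries other than control 8. The log2 fold change was -0.36 (SE 0.39, 95% interval -1.20 to 0.49). It was -0.11 without LOY 14, -0.16 without control 8 and -0.19 without LOY 5. Usp18 was listed at 0 in LOY 5 and at 1265 to 3019 normalised reads in the other LOY libraries, against 330 (control 2) to 2542 in the control libraries. With all libraries the log2 fold change was -1.28 (SE 1.61), and without LOY 5 it was 0.55.

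The 4 IFIT genes, whose proteins bind foreign RNA and block its translation, shared 1 feature, a minimum in LOY 5. Ifit1 (chr19:34640871-34650009, plus strand) ran from 1203 to 5055 with a median of 3224 normalised reads in the control libraries. In the LOY libraries it was at 2.97 in LOY 5 and from 2008 to 5615 in the other 5. Ifit3 (chr19:34583531-34588731, plus strand) ran from 1401 to 7655 with a median of 4829, and was at 25.7 in LOY 5 and from 2995 to 10600 in the other LOY libraries. Both genes were thus abundant in 5 LOY libraries and almost absent from the sixth. Ifit2 was listed at 0 in LOY 5, against 374 to 2556 in the other LOY libraries, while Ifit3b was at 398 in LOY 5, against 1158 to 5468. The fitted log2 fold changes were -1.38 (SE 1.42) for Ifit1, -1.16 (SE 1.55) for Ifit2, -0.98 (SE 1.12) for Ifit3 and -0.24 (SE 0.56) for Ifit3b. Without LOY 5 they were 0.25, 0.53, 0.24 and 0.18. Of the 50-base words in Ifit3 transcripts, 51.2% are also in Ifit3b, so reads of the pair could be split between them.

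Within the OAS family, some of whose members make short oligoadenylates that switch on RNase L, Oas1c was the member with the largest fitted change. Enzyme activity was not measured, and no such activity is implied for Oas1c. Oas1c (chr5:120800194-120812514, minus strand) had a normalised read count of 344, 189, 317, 158, 88.1 and 29.6 in control 2, 6, 7, 8, 11 and 12. In the LOY libraries it was at 0 in LOY 3, 4, 14 and 15, at 8.90 in LOY 5 and at 67.8 in LOY 10. All control libraries held it, 4 of 6 LOY libraries did not, and the groups overlapped through LOY 10, which was above control 12. The means were 188 ± 124 and 12.8 ± 27.2 normalised reads (SD, n = 6 each). The log2 fold change was -5.61 (SE 1.34, 95% interval -8.48 to -2.73), with an adjusted p of 0.696 in limma. Oas1c reached 10 normalised reads in 7 libraries, the 6 control libraries and LOY 10. It thus passed the filter through the group where it is high, and its fold change and p are given as a description. In the authors' deposited table its log2 fold change was -3.87 with an adjusted p of 0.244. Of the 50-base words in its transcripts 15.1% occur in other genes, and 227 bases of its exons are overlapped by Gm43069 on the other strand. Since this library chemistry does not mark strand, reads of that stretch cannot be assigned to one of them.

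The other OAS genes were read in every library, and none passed the threshold. Oas1a, whose transcripts share 57.6% of their 50-base words with Oas1g, ran from 756 to 1180 and from 130 (LOY 10) to 1647 normalised reads. Oasl2 was the steadiest member, from 5045 to 7501 in control and from 3609 to 10710 in LOY libraries. It had an SD of 0.46 on the log2 scale over all 12 libraries, where the median was 1.29 over the members and 2.42 over all genes tested. Oasl1 ran from 502 (control 11) to 4029 with a median of 3022, and from 601 (LOY 5) to 2617 with a median of 1525 normalised reads. Its log2 fold change was -0.71 (SE 0.53, 95% interval -1.84 to 0.41). For Oas1a, Oas2, Oas3 and Oasl2 the log2 fold changes were -0.49, -0.13, 0.28 and -0.28, with SEs of 0.55, 0.43, 0.61 and 0.27. The value of Oas1a was -0.023 without LOY 10.

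Of the proteins that act on viruses directly, Rsad2 (viperin, which makes a nucleotide that stops viral RNA synthesis) was steady. Rsad2 ran from 1820 to 6381 with a median of 3748, and from 1513 (LOY 5) to 7627 (LOY 4) with a median of 3899 normalised reads. The log2 fold change was 0.076 (SE 0.39), -0.020 after centring each library on its median over the tested genes, and -0.12 to 0.34 when 1 library was left out. Bst2 (tetherin, which holds budding virions at the cell surface) ran from 212 to 636 with a median of 510 in the control libraries, and was at 5.93 in LOY 5 and from 220 to 1038 in the other LOY libraries. The log2 fold change of -0.83 (SE 1.05) became 0.19 without LOY 5. Isg20, an exonuclease of single-stranded RNA, was highest in LOY 15 at 8072 normalised reads and ran from 1608 to 4102 in the other libraries.

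The GTPases induced mainly by interferon gamma differed among themselves. Ifi47, an immunity-related GTPase (chr11:49076587-49096974, plus strand), ran from 285 to 1195 with a median of 818 normalised reads in the control libraries. It was at 0 in LOY 10 and LOY 14, and at 327 to 785 in the other LOY libraries. Its log2 fold change of -3.57 (SE 1.70, 95% interval -7.22 to 0.078) went with those 2 libraries, and the other 4 LOY libraries lay inside the control range. Gbp2, a guanylate-binding protein that coats vacuoles with pathogens, ran from 323 to 2253 with a median of 673, and from 513 to 3163 with a median of 1307 normalised reads (log2 fold change 0.63, SE 0.55). Gbp3 was scattered in both groups, from 0.926 to 697 and from 0 to 855 normalised reads. Of 2 further members, Ifi204, a DNA-binding protein of the PYHIN family, ran from 624 to 2375 and from 711 to 2755. Cxcl10, the chemokine that draws Cxcr3-bearing lymphocytes (chr5:92346638-92348889, minus strand), ran from 460 to 2645 with a median of 786 in the control libraries. It was at 0 in LOY 5 and at 188 to 2934 in the other LOY libraries, with a median of 858. All libraries gave a log2 fold change of -1.65 (SE 1.52), and those without LOY 5 one of -0.013.

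The 4 members that were not tested were present in few libraries, and 2 of them carry calls in the authors' deposited table. Ifi44 (chr3:151730922-151749960, minus strand) was at 379 normalised reads in LOY 10 and 203 in LOY 3, at 0.568 in control 11, and at 0 in the other 9 libraries. LOY 3 and LOY 10 held 99.9% of its reads, and the group totals were 824 reads against 1, a ratio of normalised totals of 979 (95% Clopper-Pearson interval 175 to 38720, for counting error alone). Mx1, a dynamin-like GTPase against influenza viruses (chr16:97447035-97462907, minus strand), went the other way. It was at 1111 normalised reads in control 2, 147 in control 11, 1.27 in control 8, 2.06 in LOY 15 and 0 in the other 8. Control 2 and control 11 held 99.8% of its reads, and the totals were 2 reads against 1791, a ratio of 0.00133 (0.000161 to 0.0048).

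The authors' deposited table gives Ifi44 a log2 fold change of 9.81 with an adjusted p of 0.0371, and Mx1 one of -9.29 with an adjusted p of 0.0126. Of the 30 members, 2 (6.67%) were under 0.05 there, against 3.12% of the 9722 genes with an adjusted p. Genes with at least 99% of their normalised reads in 2 libraries made up 12.6% of the listed genes and 45.5% of the 303 genes under 0.05 in the authors' deposited table. Mx2 reached 10 normalised reads in 4 libraries (263 in LOY 4 and 172 in LOY 15 at most) and is annotated as a polymorphic pseudogene. Gbp5 did so in 5, with 343 in LOY 10 and about 220 in control 7 and control 11. The ratio of their totals, LOY over control, was 2.49 (2.09 to 2.98) for Mx2 and 1.10 (0.981 to 1.23) for Gbp5. These intervals cover counting error alone and not the spread among libraries, and LOY 4 and LOY 15 held 67.5% of the Mx2 reads.

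Taken library by library, the mean of log2(normalised reads + 1) over the 26 tested members put LOY 5 lowest and LOY 4 highest. It was 10.05, 9.94, 10.15, 10.06, 10.27 and 9.59 in control 2, 6, 7, 8, 11 and 12. In LOY 3, 4, 5, 10, 14 and 15 it was 10.42, 10.78, 7.25, 9.76, 9.02 and 9.93. The control libraries thus lay close together, and the LOY libraries spread to both sides of them. The group means were 10.01 ± 0.23 and 9.53 ± 1.27 (SD, n = 6 each), and 9.98 ± 0.67 for LOY without LOY 5 (SD, n = 5). The sum of normalised reads over all 30 members was 37740 to 61980 in the control libraries. It was 20880 in LOY 5, 94150 in LOY 4 and 35070 to 61140 in the other LOY libraries.

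**Figure D4:**
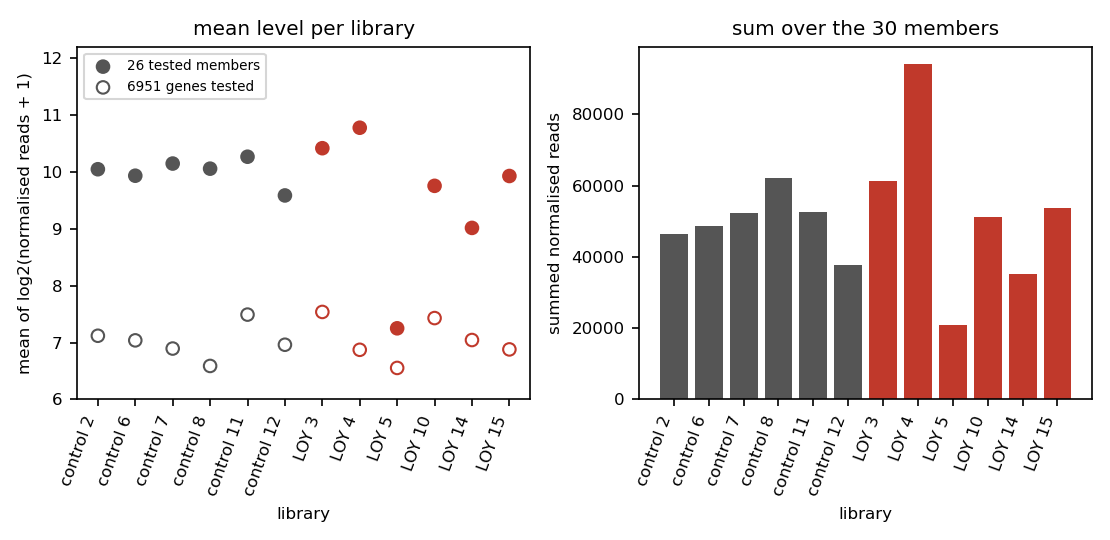
Left, mean of log2(normalised reads + 1) per library over the 26 tested members (filled) and over all 6951 genes tested (open); right, summed normalised reads of the 30 members per library, control in grey and LOY in red. LOY 5 is lowest in both panels, at 7.25 and 20880, and LOY 4 is highest, at 10.78 and 94150.

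In LOY 5 the members were lower relative to all genes than in any other library. The mean over the members exceeded the mean over all genes tested by 2.63 to 3.47 on the log2 scale in the control libraries, by 1.97 to 3.91 in 5 LOY libraries and by 0.70 in LOY 5. LOY 5 was the lowest library for 11 of the 26 members (42.3%), against 17.6% of the genes tested, ties included. LOY 4 was the highest for 11 members (42.3%), against 8.20%. In LOY 5, 7 of the 26 members were under 10 normalised reads, the same share as of all genes tested (26.9% for both), while no other library had more than 2 members under 10. The summed neutrophil markers (330600) and macrophage markers (9212) of LOY 5 were inside the control range. By the mean of log2(normalised reads + 1) over a list, LOY 5 was the lowest of the 12 libraries for dendritic cell markers (5.85, against 6.09 or more) and cardiomyocyte markers (5.17, against 6.27 or more). It was not the lowest for neutrophil markers (12.69, against 10.40 or more) or macrophage markers (6.23, against 4.92 or more). The part of the depth, RNA quality or cell makeup of LOY 5 in these values was not tested.

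Genes of the same pathway that are not members were taken from lists of 140 genes, of which 114 were in the table and 98 were tested. None of the 98 passed the threshold in limma, and 3 had an unadjusted p under 0.05 (3.06%, against 4.37% of all genes tested). The fitted change was positive for 35 (35.7%, against 50.4% of all genes tested) and negative for 63, with a median of -0.15. Whether this split holds without LOY 5 was not tested. Of 12 interferon genes, Ifnb1 among them, none is listed in the table. The 9 receptor and kinase genes were all tested. Ifnar1 ran from 97.2 to 1496 and from 382 to 1847 (in LOY 5) normalised reads, with a log2 fold change of 1.31 (SE 0.67). Ifnar2 had a log2 fold change of 0.31 (SE 0.69) and Ifngr1 one of -0.58 (SE 0.38). Ifnlr1, the receptor chain for type III interferon, ran from 2.53 to 417 in the control libraries and was at 227 in LOY 14 and at no more than 1.16 in the other LOY libraries. The log2 fold change of -5.11 (SE 1.64) had an unadjusted p of 0.00743 and an adjusted p of 0.997 in limma.

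Irf1, a transcription factor that interferon gamma induces, was read at similar levels in both groups. It ran from 3429 to 7543 and from 2203 to 6881 normalised reads in control and LOY libraries (log2 fold change -0.060, SE 0.29). In LOY 5 it was at 6474 normalised reads, inside the control range. Of 56 tested interferon-induced genes outside the members, 21 were positive (37.5%, against 50.4% of all genes tested) and 35 negative (median -0.22). LOY 5 was lowest for 18 of the 56. A tie was credited to the first tied library, in the order control then LOY by number. Some of the 18 were therefore ties, such as Eif2ak2, at 0 in LOY 5 and LOY 14. By the same count LOY 5 was lowest for 0 of 7 factors, 2 of 9 receptors and kinases, 2 of 12 genes induced by interferon gamma, and 685 of all 6951 genes tested. It was also lowest for 3 of 7 B cell markers, 4 of 14 cardiomyocyte markers and 2 of 8 dendritic cell markers. This count was made after the values of LOY 5 had been seen. Slfn8 and Epsti1, for example, were at 0 in LOY 5, against control ranges of 685 to 4129 and 117 to 1045 normalised reads. Other genes of the same list went the other way. LOY 5 was the highest library for Parp10 (1695 normalised reads) and Tor3a (570 normalised reads). Among the sensors, Aim2, which builds an inflammasome on DNA, ran from 1.27 to 624 and from 576 to 1062 normalised reads, with a log2 fold change of 3.33 (SE 1.17, adjusted p of 0.997 in limma). Tmem173, which encodes the adaptor STING, had a log2 fold change of -2.71 (SE 1.27).

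Pairs of members rose and fell together across the 12 libraries more often than pairs of all genes. Over the 325 pairs of tested members the median Spearman rho was 0.27, 73.5% of pairs were positive and 21.8% were above 0.5. Over all pairs of tested genes the median was 0.0, with 50.2% positive and 5.80% above 0.5. These values are a description over 12 libraries that differ in depth and genotype. Centring on each genotype gave a median of 0.25. The median was 0.086 over the 6 control libraries and 0.43 over the 6 LOY libraries. In the control libraries 53.85% of member pairs were positive and 16.0% above 0.5, near the 50.12% and 15.61% of all genes there. In the LOY libraries these were 81.54% and 40.92%, against 50.21% and 15.55%. Without LOY 5 the median was 0.19, without LOY 4 it was 0.18, and without both it was 0.10. Members with an ISRE core in the promoter window had a median rho of 0.33 over 105 pairs, 85.7% of them positive. For the 7 with a window but no core it was 0.014 over 21 pairs, with 52.4% positive. Pairs above 0.5 made up 32.4% with a core and 19.05% without, both more than the 5.80% over all genes. Pairs that share a gene are not independent, and the core set holds Ifit3 and Ifit3b, which share sequence. The split was not repeated without LOY 4 and LOY 5.

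The highest values were among a few members. Ifit3b had the highest median rho with the others, at 0.50, followed by Cxcl10 at 0.47, Rsad2 at 0.44, Bst2 at 0.43 and Isg15 at 0.42. The closest pairs were Ifit3b with Cxcl10 (rho 0.91), Usp18 with Ifit3b (0.86), Usp18 with Cxcl10 (0.85), Rsad2 with Ifit1 (0.85) and Oas1a with Oasl2 (0.81). Stat2 was closest to Oas2 (0.78) and Irf7 to Stat2 (0.73). At the other end were Irf9 at -0.15, Oas1c at -0.078, Ifi47 at -0.0070 and Ifit2 at 0.028. Ifit2 thus stood apart from the rest of its family, and its closest member was Irf9 (rho 0.60).

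**Figure D5:**
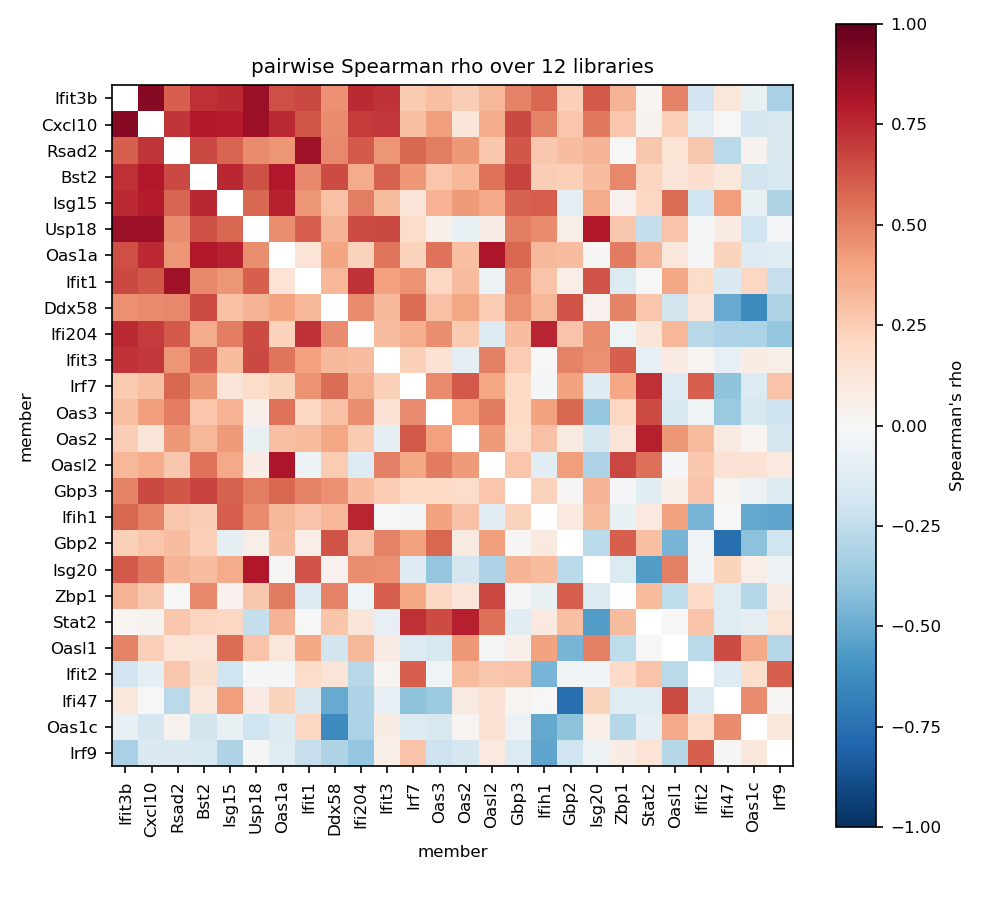
Spearman's rho between the levels of each pair of the 26 tested members over the 12 libraries (red positive, blue negative), in the order of the median rho with the other members, highest first. The block at the upper left holds Ifit3b, Cxcl10, Rsad2, Bst2 and Isg15, and Irf9, Oas1c and Ifi47 are at the other end.

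Isg15 was also set against 123 genes one by one, 25 members and 98 pathway genes, with 100000 permutations for each relation. None passed 0.05 after Benjamini-Hochberg adjustment over the 123, and 19 had an unadjusted p under 0.05 for Pearson's r. The r was positive for 21 of the 25 members (median 0.49), while over all tested genes the median was -0.012 and 48.4% were positive. By r the closest member was Ifit3b, with r = 0.81 (permutation p = 0.0018, adjusted p = 0.0738) and rho = 0.75 (permutation p = 0.00698, adjusted p = 0.123). Its r was 0.87 without LOY 14 and control 8, the libraries farthest from the median of Isg15, and 0.68 and 0.86 within the control and LOY libraries. By rho the closest was Cxcl10, with r = 0.70 and rho = 0.78 (adjusted permutation p = 0.147 and 0.123), and r = 0.81 without those 2 libraries. Outside the members, Parp9 (r = 0.84, rho = 0.52) and Ifitm3 (r = 0.83, rho = 0.80) were closest by r, each with an adjusted permutation p of 0.0523 for r and of 0.392 and 0.123 for rho. Ifi27l2a was closest by rho (0.81), with r = 0.79 (adjusted permutation p = 0.123 and 0.0747). The relation to Irf9 was negative (r = -0.39), but 0.38 without the 2 libraries, and so rested on them. Zbp1 likewise changed from r = -0.35 to 0.46.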

How the data were processed

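Bulk RNA was sequenced from heart neutrophils after SMART-Seq v4 amplification and Nextera XT library preparation, per the labels' protocols; this chemistry carries no strand and no molecular identifiers. The submitters' processing notes name bcl2fastq 2.17, Trimmomatic 0.36, STAR 2.5.2b, featureCounts of Subread 1.5.2 and the builds GRCm38 and mm10, with no role or order. The authors deposited 1 table. The signal in its library columns was made by the authors by scaling the read counts of each library with a single factor, as the values show, and undoing that gave whole reads for 100% of values (within 0.01). The deposited log2 fold change, p-value and adjusted p-value of each gene come from a test not named in the sources used here. DESeq2 on the recovered reads gave the same log2 fold changes for the members, such as 0.546 for Irf7 and -0.0702 for Ifit1. Both had 303 genes under 0.05. The deposited calls and those of DESeq2 are therefore 1 analysis and not 2 separate ones. Symbols that were blank or had turned into dates (25) were taken from GENCODE M21 on GRCm38, which also gave coordinates (11892 identifiers matched).

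Groups came from the genotype label. The test was limma 3.58.1 (R 4.3.3) with genotype as the 1 term, on log2(normalised reads + 1), with its trend and robust options. A gene needed 10 or more normalised reads in 6 or more libraries (6951 genes), and Benjamini-Hochberg adjustment ran over all of them with a threshold of 0.05. Fold changes on this scale understate the change of low genes and, for a gene at 0 in some libraries, can be far from the ratio of means. As alternatives, DESeq2 1.42.0 and edgeR 4.0.16 were run on the recovered reads, and limma after quantile normalization, with no filter, for a mean of at least 50, with pseudocounts of 0.5 and 5, with array weights and without each library. Leaving out LOY 4 and LOY 5 together and centring on library medians were chosen after seeing the data. Permutations, two-sided, were drawn with numpy 2.4.6, and ranks were made with scipy 1.17.1. The fit and the permutation test were tested on simulated data. The labels name no batch or date. The limma intervals cover the spread among the libraries. Those of the ratios of totals cover counting error of reads only, and PCR copies count as reads in them.

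Members, lists and tests were chosen with earlier results of these data known. Named with values are the 8 members of smallest p and Irf7, Stat2, Isg15, Ifit1, Ifit3, Rsad2, Cxcl10 and Bst2. Of the pathway lists, up to 3 of smallest p and Ifnar1, Ifnar2, Ifngr1, Irf1 and Ifnb1 are named, and 1 further gene of that rule is not reported here; other names were added after their values were seen.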

Additional observations from a re-analysis of the deposited data

Results flagged for a closer look

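In each group of 6 libraries the highest and lowest values of the 26 tested members were checked on the log2 scale for a gap to the nearest other library wider than Dixon's 95% limit. Of 52 groups, 13 had such a library, and 7 of the 13 were LOY 5. Chance alone gives about 5% of groups for values that scatter normally, and over all 6951 genes tested 15.1% of 13902 groups had one, of which 15.9% were LOY 5.

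LOY 5 was far below the other LOY libraries for Ifit1 (2.97 normalised reads, the others 2008 to 5615), Ifit2 (0, the others 374 to 2556) and Ifit3 (25.7, the others 2995 to 10600). It was likewise far below them for Irf9 (388, the others 951 to 1551), Usp18 (0, the others 1265 to 3019), Cxcl10 (0, the others 188 to 2934) and Bst2 (5.93, the others 220 to 1038). LOY 15 was low for Stat2 (21.6, the others 295 to 1262). Control 8 was high for Isg15 (6500, the others 2633 to 3324), and low for Irf9 (26.6, the others 558 to 2671) and Zbp1 (2.53, the others 317 to 972). Control 11 was low for Oasl1 (502, the others 2034 to 4029) and control 2 for Usp18 (330, the others 1277 to 2542). The genes concerned differ between the control libraries, while in LOY 5 they include 3 of the 4 IFIT genes.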

How the results depend on the processing

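No paired analysis was possible because no replicate number is shared between control and LOY. Genes past the threshold over all genes (2) were 303 with DESeq2, 0 with edgeR, without a filter, with a mean of at least 50 and without LOY 4 and LOY 5, and 0 to 4 with 1 library left out. Members past it (0) were 2 with DESeq2, Ifi44 and Mx1, the same 2 as in the authors' deposited table, and 0 with any library left out. The median log2 fold change of the members (-0.18) was 0.083 with DESeq2, 0.046 with edgeR, 0.073 without LOY 4 and LOY 5, and -0.40 to 0.25 with 1 library left out. Positive members (11) were 17 with DESeq2, of 30 tested, and 9 to 18 with 1 library left out. Relations of Isg15 past the threshold (0) were 1 after quantile normalization, 5 after centring on genotype or on library medians, and 0 to 11 with 1 library left out (11 without LOY 14, 5 each without control 2 and control 12). The median pairwise rho (0.27) was 0.10 without LOY 4 and LOY 5 and 0.18 to 0.30 with 1 library left out. The difference of the mean member level (-0.48) was -0.73 to -0.028 with 1 library left out.

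Of 572 refitted log2 fold changes of single members, 531 kept the sign and 41, of 13 members, turned. With DESeq2 and edgeR these were Ifit2 (0.22 and 0.19), Irf9 (-0.28 and -0.31), Stat2 (0.050 and 0.025), Usp18 (0.12 and 0.11) and Bst2 (0.073 and 0.067). Without LOY 4 and LOY 5 they were Ifit1 (0.15), Ifit2 (0.65), Oas3 (-0.25) and Usp18 (0.46). Oas2 turned with array weights (0.042) and Rsad2 after centring on library medians (-0.020). With 1 library left out, the ranges were -1.85 to 0.25 for Ifit1, -1.74 to 0.53 for Ifit2, -1.48 to 0.24 for Ifit3, -0.57 to 0.18 for Ifit3b, -1.76 to 0.55 for Usp18 and -1.26 to 0.19 for Bst2. They were -0.12 to 0.34 for Isg20, -0.50 to 0.82 for Irf9, -0.66 to 0.72 for Stat2, -0.41 to 0.089 for Oas2, -0.12 to 0.60 for Oas3, -0.12 to 0.34 for Rsad2 and -0.70 to 1.65 for Gbp3. Of these, 7 turned without LOY 5. The cause was not tested. The value filter left out Ifi44, Mx1, Mx2 and Gbp5, and without it limma called none of the 30 members (3 at an unadjusted p under 0.05). The other 13 tested members kept their sign in every refit.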
